A study of Mus musculus with 2 samples.

Results

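The syndecans, the glypicans and perlecan are heparan sulfate proteoglycans, and their mRNAs were followed here in mouse primary chondrocytes before and after mechanical loading. Non-control array probes listed under a RefSeq transcript of Sdc1, Sdc2, Sdc3, Sdc4, Gpc1, Gpc3, Gpc4, Gpc6 or Hspg2 were taken, which gave 10 probes for 9 genes of the 20660 genes that could be named on the array. Hspg2 had 2 probes and every other gene had 1. All 10 probes were well above background on both arrays, so that no gene was lost to a filter.

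The cells were articular chondrocytes released from the cartilage of 6-day-old C57BL/6J mice, with no transgene or deletion in either group, and the number of mice behind each culture was not given in the sources used here. They were plated in fibronectin-coated silicon chambers for 48 h. The control RNA was taken before loading, and the loaded RNA was taken 24 h after 30 min of cyclic tensile strain of 10% elongation at 0.5 Hz. Each group was 1 array with RNA of 1 sample, and both arrays lay on 1 slide. Without replicates the differences below were not tested, and they are given as sizes with no p-value. As the control was not a culture kept unloaded until 24 h, an effect of strain and an effect of the extra day in culture cannot be told apart.

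Values are the intensity of a spot after background subtraction by the scanner software, in arbitrary units, each with the error that the software gives it. Log2 ratios were taken as the loaded minus the control array, after each array was set relative to the 75th percentile of its probes, an intensity of 466.37 before loading and 466.15 after. The error of a log2 ratio combines the software's errors of both spots, and for the member genes it was 0.20 in each case. The software gave each member spot an error of nearly the same share of its intensity, and the median over all detected genes was 0.20 too. This error is thus nearly a constant for bright probes rather than a scatter measured for each gene. It covers error within the arrays and says nothing of the spread between cultures. Over 169 probes printed at least 8 times at intensities within the range of the member probes, repeat spots of the same probe scattered in log2 ratio with a median SD of 0.07 and a highest SD of 0.21. A total of 14222 genes were detected, meaning that their brightest probe was well above background on both arrays.

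All 12 listed chondrocyte markers were detected, among them Col2a1, Acan and Sox9, with log2 ratios from -0.82 for Col11a1 to 0.56 for Matn1 and a median of 0.11. Their intensity, summed with the loaded array scaled to the control, was 1396614 before loading and 1405039 after, a sum in which Col2a1 weighs most. Sums for other cell types are over all matched genes, detected or not. The 6 matched macrophage genes of 7 were all detected and summed to 29694 and 28796, most of it Itgam (-0.04). Of the 6, 4 had log2 ratios above 0, up to 1.14 for Ptprc. Ptprc was dim, at 20.9 before loading and 46.1 after, and spots well above background began at 17.3 on the control array. Skeletal muscle genes (5 of 7 detected) summed to 1944 and 1714, with log2 ratios from -0.78 for Tnnt3 to 1.15 for Myh8. Endothelial genes (1 of 6 detected) summed to 139 and 159, and Cdh5, Tek, Emcn, Tie1 and Esam were not well above background. Osteoblast genes (4 of 6 detected, 1 not matched) summed to 1251 and 617, with log2 ratios from -2.06 for Ibsp to -0.34 for Phex. Epithelial genes (3 of 6) summed to 497 and 361. Every detected gene of both lists was below 0. Fibroblast-type matrix genes (6 of 6) summed to 214335 and 217422. The part of these cells in the results below was not tested, nor was whether the chondrocytes themselves express genes of the other lists. In RNA of a whole culture, fewer cells of a type and less RNA per cell cannot be told apart.

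A heparan sulfate proteoglycan is a core protein to which long sulfated sugar chains are attached, and the chains bind growth factors such as FGFs, hedgehog proteins, Wnts and BMPs and hold them at the cell surface or in the matrix. Syndecans span the plasma membrane and couple the matrix to the cytoskeleton through a short cytoplasmic tail. Glypicans are tied to the outer face of the membrane by a lipid anchor. Perlecan is secreted and, in cartilage, lies in the pericellular matrix around each chondrocyte.

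None of the 9 genes changed more than 2-fold or more than 1.5-fold. Among all detected genes, 2.50% passed 2-fold and 9.49% passed 1.5-fold in either direction, of which 3.66% were more than 1.5-fold higher and 5.84% lower, so that a count of 0 among 9 genes is close to what these shares give. The higher genes made up 26.8% of all genes past 2-fold, and 38.8% when the arrays were scaled by their medians. They made up 38.5% of those past 1.5-fold, and 56.7% with median scaling or 52.5% with scaling to the spike-in controls. Within that range 7 members had a log2 ratio above 0 and 2 below, while 47.6% of all detected genes lay above 0 and 52.4% below. With median scaling 63.1% of all detected genes lay above 0, and with spike-in scaling 59.5%, while the members stayed at 7 and 2. The median log2 ratio of the members was 0.15, and that of all detected genes was -0.01. The median size of the log2 ratio, whatever its sign, was 0.36 over the members and 0.18 over all detected genes. The plot of intensities shows each probe on both arrays.

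**Figure D1:**
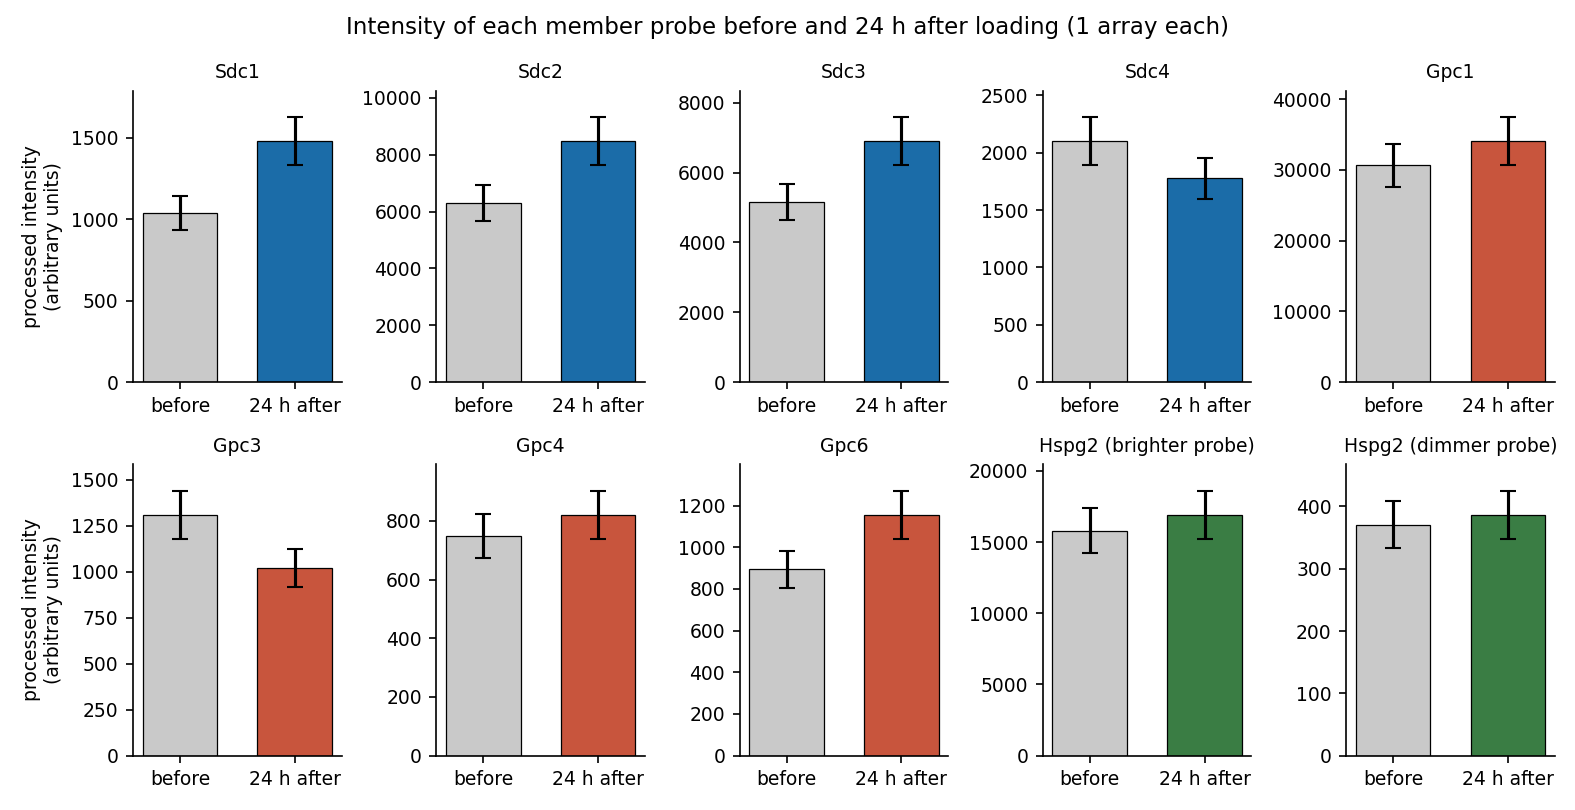
Processed intensity (arbitrary units, linear axis from 0) of the 10 member probes before loading (grey) and 24 h after loading (coloured by family), 1 array per bar, with the scanner software's error as error bars. The bars of Sdc1, Sdc2, Sdc3 and Gpc6 are taller after loading and that of Gpc3 is shorter, with no overlap of the error bars. The bar of Sdc4 is shorter, with error bars that overlap. Each panel has an axis of its own because levels of different probes are not compared.

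Of the 4 syndecans, 3 had log2 ratios above 0 and 1 below, all within 1.5-fold. Sdc1 (NM_011519), known as a surface proteoglycan of epithelia and plasma cells, had an intensity of 1036 ± 104 before loading and 1478 ± 148 after. Its log2 ratio of 0.51 was the highest of the 9 genes, a 1.43-fold difference, and 4.98% of all detected genes had a higher one. The Sdc1 spot was the only member spot in a disturbed area of the array, here a place where at least 3 neighbours within 100 µm changed more than 2-fold in the same direction. The 3 changed neighbours among its 25 had fallen, whereas the Sdc1 spot was brighter, and the median log2 ratio of 105 detected spots within 300 µm was 0.01.

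Sdc2 (NM_008304), the syndecan typical of mesenchymal cells, had an intensity of 6307 ± 631 before loading and 8481 ± 848 after, a log2 ratio of 0.43. Sdc3 (NM_011520), which is found in growth plate cartilage as well as in the nervous system, went from 5162 ± 516 to 6899 ± 690, a log2 ratio of 0.42. The log2 ratios of these 2 genes differed by 0.01, far less than the error of that difference, 0.29. Both lay in the upper tail of the array, with 7.46% of all detected genes above Sdc2 and 7.73% above Sdc3.

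Sdc4 (NM_011521), a syndecan of focal adhesions that binds protein kinase C alpha and has been linked to cartilage breakdown in osteoarthritis, had an intensity of 2101 ± 210 before loading and 1775 ± 178 after. Its log2 ratio of -0.24 was 1.19 errors below 0, and 20.2% of all detected genes had a lower one. Sdc4 differed from each of the other syndecans by more than either gene changed, as must be so when the signs are opposite. Sdc1, Sdc2 and Sdc3 differed from one another by at most 0.09. The log2 ratio of Sdc1 exceeded that of Sdc4 by 0.76 with an error of 0.29, and those of Sdc2 and Sdc3 exceeded it by 0.67 and 0.66. A difference between 2 genes of the same arrays is unaffected by a factor that multiplies a whole array. The excess of Sdc1 over Sdc4 stayed between 0.71 and 0.76 under the 12 alternative settings that gave a value for Sdc1. Most of these settings cannot alter such a difference. Those that can gave 0.74 with quantile normalization, 0.75 with loess and 0.72 with normexp background correction. The deposited values gave 0.75, and subtracting the local median gave 0.71.

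**Figure D2:**
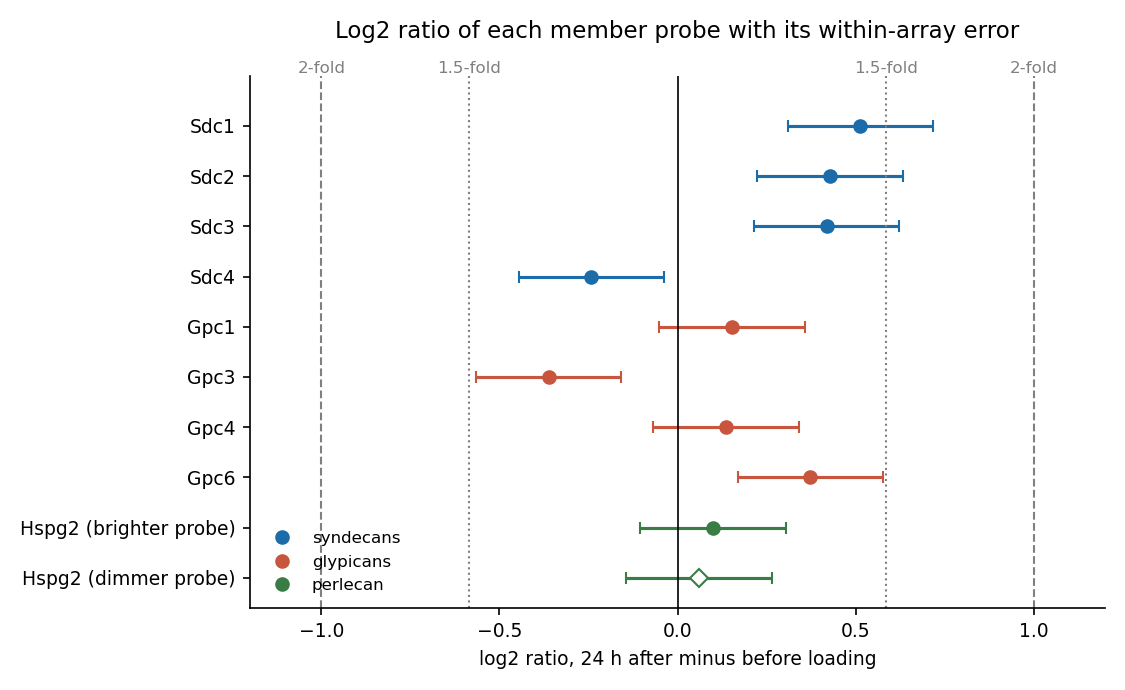
Log2 ratio (24 h after minus before loading) of the 10 member probes, with the within-array error as error bars; circles are the probes that represent a gene, the open diamond is the dimmer probe of Hspg2, and dotted and dashed lines mark 1.5-fold and 2-fold. All points lie inside 1.5-fold, and the bars of Sdc1, Sdc2, Sdc3 and Gpc6 lie above 0 while those of Sdc4 and Gpc3 lie below it.

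Upstream sequences are shown for the syndecans with a promoter in the RefSeq table (GRCm38.p6), since the log2 ratios of Sdc1 and Sdc3 lay above that of Sdc4 by more than 2 errors, and for Gpc3, the member with the lowest log2 ratio. The table held 6 of the 9 genes. Each sequence is the 250 bases before the annotated start of the gene, on the strand of the gene. Capitals mark matches, on either strand, to 5 motifs: TATAA (the TATA box), GGGCGG (the GC box), TGANTCA (the AP-1 motif), GGAATG (the TEAD motif) and the NF-κB consensus.
Sdc1, chr12:8771146-8771395, plus strand: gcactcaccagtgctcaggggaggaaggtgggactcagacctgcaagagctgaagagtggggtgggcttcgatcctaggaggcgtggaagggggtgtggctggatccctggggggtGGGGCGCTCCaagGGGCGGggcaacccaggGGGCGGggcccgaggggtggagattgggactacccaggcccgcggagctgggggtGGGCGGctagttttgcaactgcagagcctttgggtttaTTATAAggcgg
Sdc3, chr4:130792287-130792536, plus strand: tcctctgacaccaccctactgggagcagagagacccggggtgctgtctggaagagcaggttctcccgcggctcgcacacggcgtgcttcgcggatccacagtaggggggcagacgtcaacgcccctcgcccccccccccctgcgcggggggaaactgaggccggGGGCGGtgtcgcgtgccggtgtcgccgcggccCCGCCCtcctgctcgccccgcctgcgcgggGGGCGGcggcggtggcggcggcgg
Sdc4, chr2:164443189-164443438, minus strand: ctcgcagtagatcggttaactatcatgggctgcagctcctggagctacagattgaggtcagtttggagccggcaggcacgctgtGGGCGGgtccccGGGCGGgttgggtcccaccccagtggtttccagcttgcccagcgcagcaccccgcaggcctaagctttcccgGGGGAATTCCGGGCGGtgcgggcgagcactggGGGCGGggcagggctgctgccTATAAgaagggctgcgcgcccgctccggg
Gpc3, chrX:52613975-52614224, minus strand: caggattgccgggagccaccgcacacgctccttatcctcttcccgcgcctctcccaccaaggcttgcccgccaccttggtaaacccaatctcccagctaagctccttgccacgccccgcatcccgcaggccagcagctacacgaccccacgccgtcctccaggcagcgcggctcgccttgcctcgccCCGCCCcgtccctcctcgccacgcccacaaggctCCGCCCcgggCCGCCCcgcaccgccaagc

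The GC box was matched in all 6 member promoters and in 32.7% of the 32851 promoters of the table. The member promoters held 66.0% to 76.4% G and C, against a median of 52.4% over all promoters, and matches to this G- and C-only motif were not compared at equal base composition. The NF-κB consensus was matched in 2 of the 6, Sdc1 and Sdc4, and in 7.25% of all promoters, again without a comparison at equal base composition. In Sdc4 it starts 82 bases before the annotated start and runs directly into a GC box, so that both stand in the longest stretch of capitals. In Sdc1 it starts 134 bases before the start. TATAA was matched in Sdc1 and Sdc4 and in 22.8% of all promoters. The Sdc4 match starts 29 bases before the annotated start. Sdc1 has 2 overlapping matches on opposite strands, which start only 11 and 10 bases before the annotated start. The TEAD motif was matched in Gpc4 alone, against 12.6% of all promoters, and the AP-1 motif in 0 of the 6, against 6.75%. A match is a run of letters and not a site shown to be bound.

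Among the glypicans, 3 genes had a log2 ratio above 0 and 1 below. Gpc6, whose human counterpart is mutated in a short-limbed skeletal dysplasia, had an intensity of 894 ± 89.5 before loading and 1157 ± 116 after. Its log2 ratio was 0.37, and 9.31% of all detected genes had a higher one. The probe was listed under NM_001079844, which is 1 of 2 curated transcripts of the gene, and which transcripts it detects was not tested. The Gpc6 and Sdc2 spots lay 239 µm apart, and the median log2 ratio of the detected spots within 300 µm was -0.04 around Gpc6 and -0.09 around Sdc2.

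Gpc3 (NM_016697), an X-linked glypican that restrains hedgehog signalling and is lost in a human overgrowth syndrome, had an intensity of 1310 ± 131 before loading and 1019 ± 102 after. Its log2 ratio of -0.36 was the lowest of the 9 genes, and 12.6% of all detected genes had a lower one. The median log2 ratio of the 131 detected spots around it was -0.11, and relative to that median its log2 ratio was -0.25. Gpc4 (NM_008150), the next protein-coding gene beside Gpc3 on the X chromosome and a modulator of FGF and Wnt signals, went from 747 ± 74.8 to 821 ± 82.2, a log2 ratio of 0.14. The log2 ratio of Gpc4 exceeded that of its neighbour Gpc3 by 0.50 with an error of 0.29, and that of Gpc6 exceeded it by 0.73.

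Gpc1 (NM_016696), a co-receptor of FGF ligands, had an intensity of 30642 ± 3064 before loading and 34065 ± 3406 after. Its log2 ratio of 0.15 was within its error, as was that of Gpc4. Perlecan, encoded by Hspg2 (NM_008305) and needed for normal cartilage growth in mice, had an intensity of 15806 ± 1581 before loading and 16933 ± 1693 after on its brighter probe, a log2 ratio of 0.10. The other Hspg2 probe, listed under the same transcript, went from 371 ± 37.3 to 387 ± 38.9, a log2 ratio of 0.06. The 2 probes of Hspg2 differed by less than the median range between probes of a gene, 0.19 over 3635 genes with more than 1 detected probe.

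**Figure D3:**
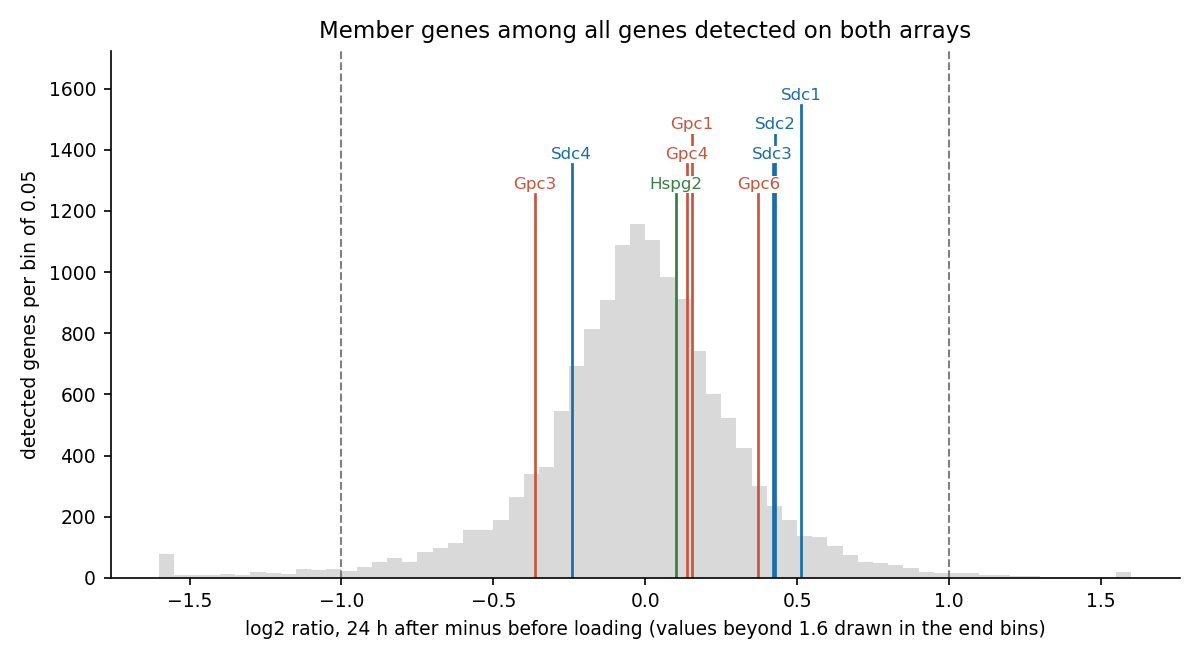
Histogram of the log2 ratios (24 h after minus before loading) of the 14222 detected genes in bins of 0.05, with the 9 member genes as vertical lines and 2-fold as dashed lines. Sdc1, Sdc2, Sdc3 and Gpc6 lie on the upper flank, Gpc3 and Sdc4 on the lower flank, and Hspg2, Gpc4 and Gpc1 close to the centre.

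With a rule added after the values were seen, a log2 ratio more than 2 within-array errors from 0, 3 of the 9 genes were called, and these were Sdc1 (2.52 errors), Sdc2 (2.10) and Sdc3 (2.05). All 3 were higher at 24 h. Because the error is nearly the same for every bright gene, the rule acts on such genes much as a fold cutoff. The rule called 17.0% of all detected genes, 7.64% as higher and 9.38% as lower. Gpc6 (1.83 errors) lay just inside it, as did Gpc3 on the other side (-1.77). Of the 36 pairs of member genes, 8 differed in their log2 ratio by more than 2 errors of the difference, 22.2%, as did 18.9% of all pairs of detected genes. Each of the 8 pairs set Sdc4 or Gpc3 against Sdc1, Sdc2, Sdc3 or Gpc6. The 36 pairs come from 9 values with nearly equal errors, so these pairs restate the order of the genes. Within families, 4 of 12 pairs differed by more than 2 errors, the pairs of Sdc4 with the other 3 syndecans and that of Gpc6 with Gpc3.

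**Figure D4:**
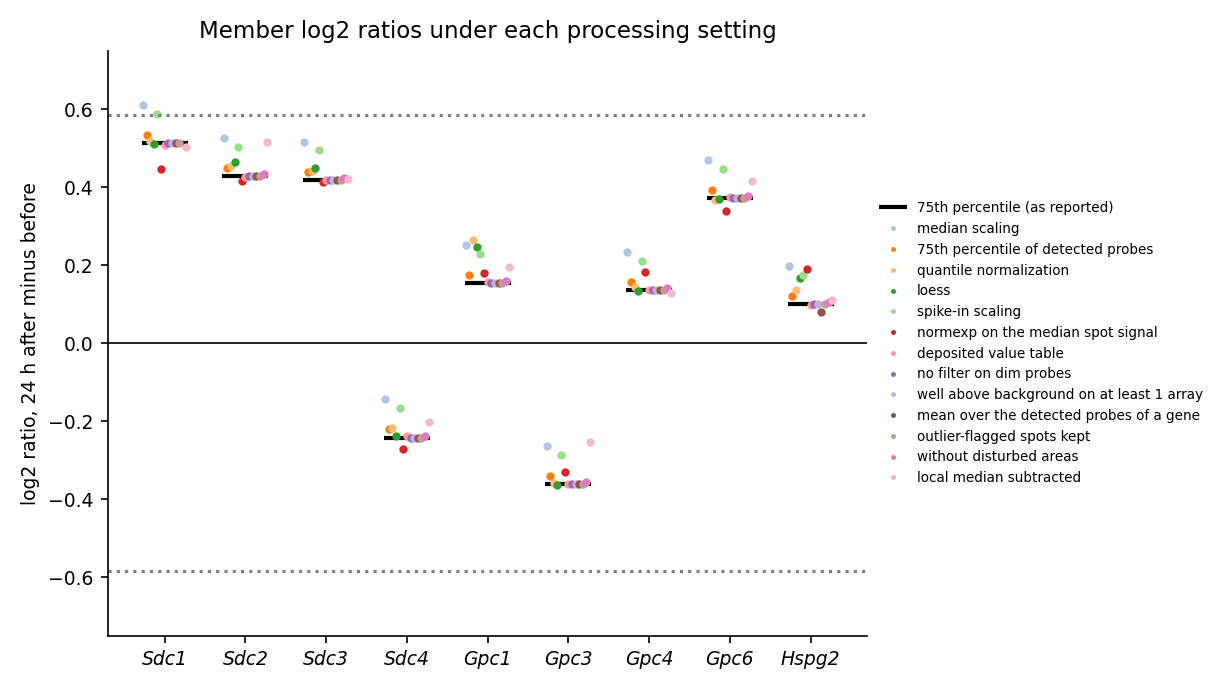
Log2 ratio (24 h after minus before loading) of the 9 member genes under the setting used in the text (black bars) and under each alternative setting (coloured points), with 1.5-fold as dotted lines. Every gene keeps its sign, and Sdc1 passes 1.5-fold under scaling by the array medians (0.61) or to the spike-in controls.

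The other genes of heparan sulfate biology were taken from 10 lists of 113 genes, of which 97 were detected. Of these, 5 were more than 1.5-fold higher and 8 lower, together 13.4%, beside 9.49% of all detected genes (3.66% higher and 5.84% lower), and their median log2 ratio was 0.06. Among the other core proteins, 7 of 8 were detected and 0 passed 1.5-fold, between Srgn, the proteoglycan of secretory granules (-0.27), and Nrp1, a VEGF and semaphorin co-receptor (0.44). The glypican Gpc5, the protein-coding neighbour of Gpc6, was detected with a log2 ratio of -0.12, and Gpc2 was near background on both arrays and is given no value. Agrn, the basement membrane proteoglycan agrin, had log2 ratios of 0.42 and -0.31 on its 2 probes, the brighter given first, and Cd44, the hyaluronan receptor, had -0.07 and -1.05, the dimmer probe past 2-fold.

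The enzymes that build the chains included 1 gene past 1.5-fold among 20 detected. The 5 members of the EXT family, which polymerise or start heparan sulfate chains, all had log2 ratios above 0, from 0.12 for Extl1 to 0.44 for Extl2, and 0 passed 1.5-fold. Over all detected genes 47.6% lay above 0, or 63.1% with median scaling. The 6 enzymes that make the linker between core protein and chain lay between -0.16 for B3galt6 and 0.14 for Xylt1. Of 15 enzymes that sulfate or epimerise the chains, 9 were detected, and their median log2 ratio was -0.03. Ndst1, which starts the sulfation of a chain, was the highest of them with 0.46, and 2 further probes of it had 0.07 and 0.55. Hs3st6, a sulfotransferase, went from 140 to 92.4, a log2 ratio of -0.60, and was the only enzyme of this list past 1.5-fold.

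Of the genes that edit the chains or cut the core proteins, 2 of 18 detected passed 1.5-fold. Hpse, the heparanase that cleaves heparan sulfate chains, went from 149 to 79.1, a log2 ratio of -0.91, 1.88-fold lower, while the extracellular sulfatase Sulf1 was the highest of its list with 0.33. With normexp background correction the log2 ratios of Hpse and of Hs3st6 came inside 1.5-fold. Of 17 proteases that can cleave these core proteins or their neighbours, 13 were detected and 10 had log2 ratios above 0, with a median of 0.35. The share above 0 was 47.6% over all detected genes, or 63.1% with median scaling. Bmp1, the gene at the median, had -0.13 and 0.13 on its 2 dimmer probes. Adamts5, an aggrecanase, was the only one past 1.5-fold, with 0.62 on the brighter probe and 1.31 on the other, and it too came inside 1.5-fold with normexp correction. Mmp3 was the lowest with -0.17. Of 11 cytoplasmic partners of syndecans, all were detected, with a median of 0.01. Sdcbp2, which encodes syntenin-2, went from 274 to 151, a log2 ratio of -0.86, while Sdcbp, which encodes syntenin-1, had -0.002, with -0.12 on a dimmer probe. Cask, a scaffold that binds syndecan tails, was the highest of this list with 0.33.

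**Figure D5:**
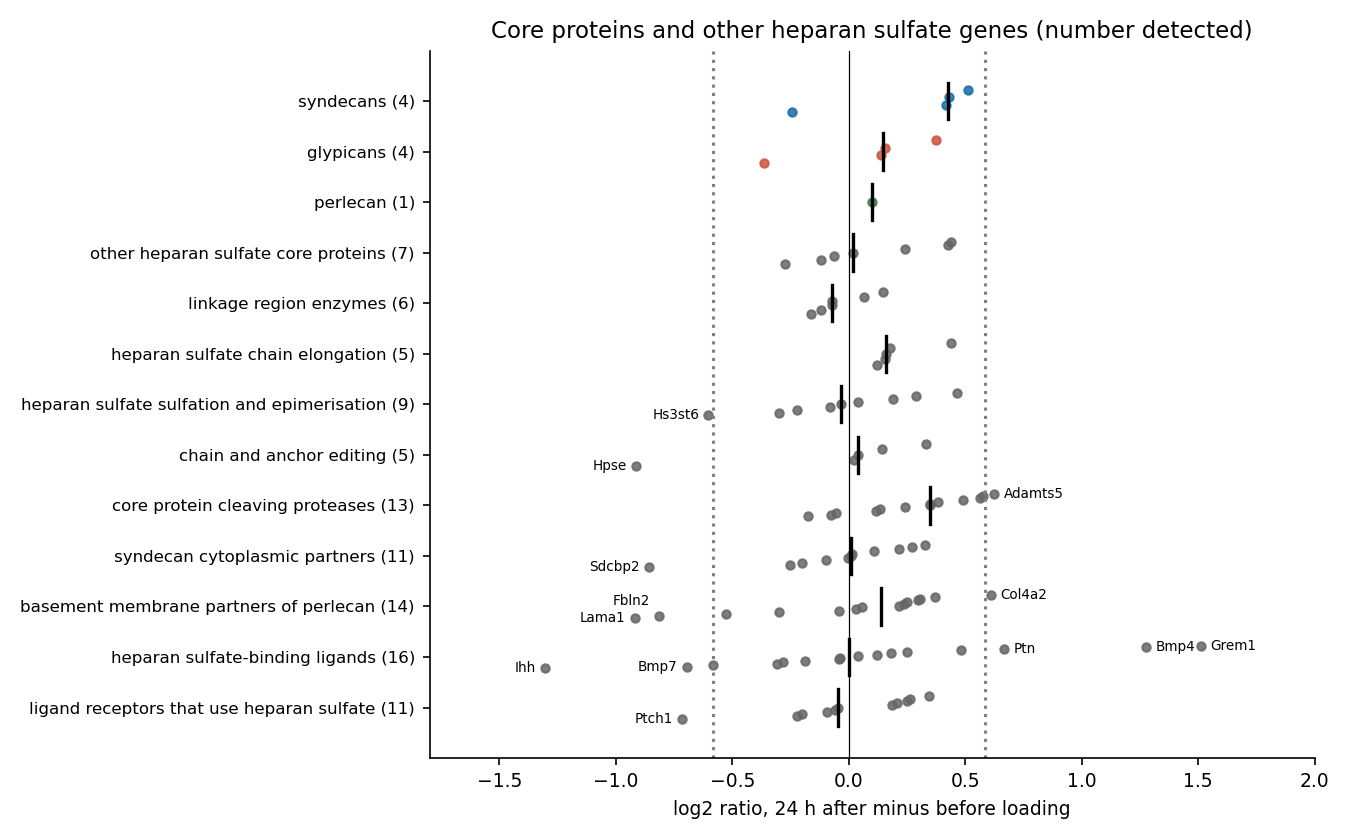
Log2 ratio (24 h after minus before loading) of each detected gene of the 3 member families (coloured) and of the 10 other heparan sulfate lists (grey), with the number detected in parentheses, list medians as black bars, and names for genes past 1.5-fold (dotted lines). The 9 member genes lie inside 1.5-fold, as do all genes of the other core protein, linkage and elongation lists, while the ligands, the longest list, span the widest range.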

How the data were processed

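The arrays were Agilent mouse expression arrays read in 1 colour. Per the file headers, the authors deposited, for each spot, the intensity processed by Feature Extraction 10.10.1.1 after background subtraction, with no normalization between arrays. Here outlier spots were dropped (141 on the control and 138 on the loaded array), the log2 intensities of spots of a probe were averaged, and each array was set relative to its 75th percentile. The 75th percentiles differed by -0.0007 on the log2 scale. Probes were named through RefSeq transcripts without their versions (27235 of 55678 probes), used for names only, as the array's grid refers to mm9. Probes listed under other identifiers were not used. The brightest probe represents a gene. Of the spots, 59.1% were well above background before loading and 57.7% after, and 0 were saturated.

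With 1 array per group no test was possible, and precision is limited by how few arrays there are. The members and gene lists were chosen with earlier results of these data known. Genes named are the members, and from the 10 heparan sulfate lists those past 1.5-fold and the lowest and highest of each list. Agrn, Cd44, Gpc5, Gpc2, Sdcbp, Bmp1 and the cell type markers were named after their values were seen. With 2 arrays no likeness of patterns between genes was computed. Cell type lists were of chondrocyte, fibroblast-type matrix, macrophage, endothelial, skeletal muscle, osteoblast and epithelial markers. Alternatives were 12 settings listed at first and 1 added later. Limma 3.58.1 in R 4.3.3 ran normexp (on the median spot signal, offset 50), quantile and loess normalization, and Python 3.11.15 the rest.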

Additional observations from a re-analysis of the deposited data

How the results depend on the processing

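No paired analysis was possible because each group held a lone array. None of the 9 member genes changed sign or moved by more than its within-array error under the 13 alternatives, except that Sdc1 has no value when disturbed areas are left out. Much of this was given in advance. Keeping outlier spots, changing the filter on dim probes or averaging probes can barely move a bright gene with 1 probe. The deposited values differ from the scanner values by at most 0.50%. A rescaling of a whole array moves every gene alike, here by at most 0.098. The median log2 ratio of the members, 0.15, was 0.25 with median scaling, 0.26 with quantile normalization and 0.25 with loess. In each of these the member at the median was Gpc1. The median over all detected genes, -0.01, was 0.08 with median scaling, 0.02 with quantile normalization and 0.02 with loess. The number of members past 1.5-fold, 0, was 1 under scaling by the medians and 1 under spike-in scaling, in each case Sdc1. Both raise every log2 ratio, by 0.098 and 0.075. Of all detected genes, 95 were more than 2-fold higher and 260 lower, and 520 were more than 1.5-fold higher and 830 lower. With normexp correction these counts were 38, 117, 272 and 429; the cause was not tested. With no filter on dim probes they were 492, 983, 1305 and 2177, and when a signal well above background was required on 1 array only, 192 genes were more than 2-fold higher and 507 lower, since both settings add dim probes. With median scaling 802 genes were more than 1.5-fold higher. Of the 13 listed genes past 1.5-fold, 12 remained under the other scalings, without Hs3st6, and 10 under normexp correction. Subtracting the local median was chosen after seeing the data. Signal limits the dim genes. Spots counted as well above background began at an intensity of 17.3 on the control array and 17.8 on the loaded array, and the dimmest member probe had 371.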

Other observations

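The mRNAs of proteins that bind heparan sulfate or lie beside perlecan spanned a wider range than those of the 9 member core proteins. Their lists hold more detected genes, 16 ligands and 14 partners of perlecan, and a range widens with the number of genes. The lists were also chosen with earlier results known, among them Grem1, the gene the study followed. Of 20 ligands that bind heparan sulfate, 16 were detected, 3 of them more than 1.5-fold higher and 2 lower, and the median log2 ratio was 0.00. Grem1 (1.51), Bmp4 (1.28) and Ptn, the growth factor pleiotrophin (0.67, and 0.56 on its other probe), were higher, while Ihh (-1.30) and Bmp7 (-0.70) were lower. Of 11 receptors that use heparan sulfate, all were detected, with a median of -0.05. Ptch1, a receptor and target of hedgehog signals, was the lowest of them and the only one past 1.5-fold, with intensities of 330 and 201 and a log2 ratio of -0.71. Ptprf was the highest with 0.35.

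All 14 basement membrane partners of perlecan were detected, with a median log2 ratio of 0.14. Col4a2, a chain of collagen IV, went from 828 to 1265, a log2 ratio of 0.61. Lama1, the alpha chain of laminin of early basement membranes, went from 631 to 334 (-0.92), and Fbln2, which encodes fibulin-2, went from 2019 to 1149 (-0.81). The only Lama1 probe lies in a disturbed area of the array and has no value when such areas are left out.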
